A study of Mus musculus with 20 samples.

Results

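Of the 24421 genes counted in the brains of cTKO mice and their controls, 33 genes of cholesterol and fatty acid synthesis are described here. They were taken by gene symbol from a list of enzymes, regulators and transporters, and not by any measured value. All 33 were found in each of the 20 count tables. All 33 also passed the filter on low values, a CPM above 1 in at least 5 libraries, in each of the 5 comparisons made. CPM is the number of reads counted on a gene in a library, scaled to the same total for every library. The 33 genes have 5 roles. There are 5 regulators, 8 genes of the path from acetyl-CoA to squalene, 9 of the path from squalene to cholesterol, 5 of sterol transport, turnover and export, and 6 of fatty acid synthesis.

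The brain makes its own cholesterol, since lipoproteins of the blood hardly cross the blood-brain barrier. Newly made cholesterol goes into myelin, synapses and the membranes of neurons and glia, and astrocytes and oligodendrocytes make much of it. Transcription of the enzymes is set by the sterol regulatory element-binding proteins (SREBPs), which are encoded by Srebf1 and Srebf2. When membranes are low in sterol, the escort protein Scap carries them from the endoplasmic reticulum to the Golgi, where proteases release the active factor, and Insig1 and Insig2 hold Scap back when sterol is plentiful. Neurons get rid of cholesterol mainly by turning it into 24-hydroxycholesterol with Cyp46a1, while the ABC transporters Abca1, Abcg1 and Abcg4 load it onto lipoproteins. The amyloid precursor protein has been proposed to control sterol synthesis, which is the question that the comparison of genotypes bears on.

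The cTKO mice carried floxed App, Aplp1 and Aplp2, the genes of the amyloid precursor protein and of its homologues, and Camk2a-Cre, which deletes them after birth in excitatory neurons of the forebrain. Controls were littermates with floxed alleles and without Cre, which the labels call wild type. All mice were 3 months old, of a mixed C57BL/6J and 129 background and of either sex, and the sex of a single library was not given. Neocortex and hippocampus were taken from each genotype, and with 5 libraries in each of the 4 groups there were 20 in all. RNA of the neocortex and of the hippocampus was extracted with different kits, so region and kit cannot be told apart. Other cells of the tissue, glia and interneurons among them, kept the targeted genes in cTKO mice. In whole tissue, fewer cells of a type and less RNA per cell cannot be told apart.

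Libraries held 12169474 to 25331954 counts, and the lowest count of any of the 33 genes in any library was 78. App, Aplp1 and Aplp2 fell in both regions without overlap between the genotypes, by log2 fold changes of -2.10, -1.92 and -1.60 in the neocortex and -1.78, -1.93 and -1.25 in the hippocampus. In controls, 4 of 4 neocortical marker genes were higher in neocortex and 4 of 4 hippocampal marker genes were higher in hippocampus. Both of the libraries cTKO neocortex 5 and cTKO hippocampus 4 stood apart from the rest. Their summed level of 6 genes of embryonic tissue, embryonic globins among them, was 609 and 384 CPM, against 0.820 to 3.08 CPM in the other 18 libraries. In all 20 libraries, both of these included, 1 to 4 of the 6 genes had no count. Both of these libraries also held 92.6 to 115 CPM of 4 genes of dividing cells, against 3.87 to 8.39 CPM in the others. Results that rest on these libraries are given with and without them.

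The sequences before the start of 4 members are shown because they hold, or lack, the letters that SREBPs and their partner NF-Y are known to bind, and because these 4 genes are among the 14 that differed between regions of controls, as given later. They were chosen after the values were seen. Hmgcs1 is HMG-CoA synthase, an early enzyme of the pathway. The stretch before its start lies at chr13:119690101-119690350, plus strand, and those of Srebf2, Insig2 and Cyp46a1 at chr15:82147019-82147180, plus strand, at chr1:121332590-121332839, minus strand and at chr12:108334066-108334315, plus strand. They are RefSeq sequences of GRCm38.p6, 5′ to 3′ along the gene, and stop where the annotated gene begins or earlier. Capitals mark TCACNCCAC, the core of the sterol regulatory element of cholesterol genes, and CCAAT, the NF-Y box, each on either strand.
Hmgcs1: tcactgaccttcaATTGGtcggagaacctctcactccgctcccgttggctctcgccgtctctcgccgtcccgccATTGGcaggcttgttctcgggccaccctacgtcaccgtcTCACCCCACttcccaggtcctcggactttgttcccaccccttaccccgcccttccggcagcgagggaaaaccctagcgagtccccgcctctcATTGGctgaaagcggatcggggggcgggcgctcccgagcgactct
Srebf2: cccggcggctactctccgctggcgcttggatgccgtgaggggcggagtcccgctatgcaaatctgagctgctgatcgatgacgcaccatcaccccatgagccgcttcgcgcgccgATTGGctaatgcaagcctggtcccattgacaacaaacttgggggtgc
Insig2: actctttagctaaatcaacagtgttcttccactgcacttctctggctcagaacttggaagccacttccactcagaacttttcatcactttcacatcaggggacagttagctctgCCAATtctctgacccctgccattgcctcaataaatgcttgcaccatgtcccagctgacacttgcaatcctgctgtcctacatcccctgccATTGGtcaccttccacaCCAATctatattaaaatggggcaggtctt
Cyp46a1: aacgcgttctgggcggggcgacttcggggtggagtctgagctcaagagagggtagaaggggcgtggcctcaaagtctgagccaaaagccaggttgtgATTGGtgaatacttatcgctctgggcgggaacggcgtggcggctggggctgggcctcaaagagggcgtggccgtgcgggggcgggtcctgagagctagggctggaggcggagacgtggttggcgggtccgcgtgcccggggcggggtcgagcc
Positions of matches are counted back from the last base shown. In the Hmgcs1 sequence the letters TCACCCCAC began at base 137 from the end, and CCAAT boxes in reverse at bases 45, 176 and 237. Srebf2 and Cyp46a1 had 1 CCAAT box each, at bases 47 and 153 from the end, Insig2 had 3, and no matches shared bases. The RefSeq start of Srebf2 lies 88 bases inside the annotated gene, so its stretch is shorter. A window of 250 bases before a RefSeq start was at hand for 25 of the 33 genes. The 8 without one were Fdps, Fdft1, Sqle, Stard4, Abcg1, Abcg4, Scd1 and Scd2. TCACNCCAC was in the windows of 1 of the 25, Hmgcs1, and of 1.22% of all 27025 genes with a window. A CCAAT box was in 19 of the 25, or 76.0%, and in 37.5% of all genes. The E-box-like letters TCACNTGA were in 1 of the 25, at an inner start of Insig2, and in 3.98% of all genes. A match says only that the letters are there, and a missing match only that these exact letters are not. Sites that differ from them in a letter were not searched.

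Levels of different genes can be compared only per length, for which CPM was divided by the exonic length of each gene. On this scale Scd2, a stearoyl-CoA desaturase of the brain, stood far above the other members in control neocortex, at 331 ± 14.96 CPM per kb (SD, n = 5). Cyp46a1 was at 87.8 ± 6.30 CPM per kb and Scd1 at 70.5 ± 7.98 CPM per kb, and Hmgcs1, at 67.2 ± 5.87 CPM per kb, did not differ from Scd1 beyond their spread. Srebf2 followed at 33.8 ± 2.28 CPM per kb, while Srebf1 reached 7.68 ± 0.367 CPM per kb. Acly and Fasn, which make cytosolic acetyl-CoA and palmitate, lay next to each other at 31.4 ± 1.79 and 29.6 ± 0.726 CPM per kb. Among the sterol enzymes after Hmgcs1, Fdft1, which is squalene synthase, was at 22.9 ± 0.747 CPM per kb, and Pmvk, phosphomevalonate kinase, at 18.05 ± 1.06 CPM per kb did not differ from Cyp51, at 17.04 ± 2.68 CPM per kb, beyond their spread. Further down, Sqle and Nsdhl did not differ beyond their spread, at 10.04 ± 1.24 and 10.05 ± 0.736 CPM per kb. The lowest members were Stard4 at 2.77 ± 0.180 and Idi1 at 1.92 ± 0.206 CPM per kb. Part of the sequence of some members occurs in other genes, so that their counts are less certain. The share of 100-base windows of their transcripts that also occurs elsewhere was 28.9% for Acat2 (shared with Acat3 and Tcp1), 23.7% for Acaca, 21.9% for Idi1, 21.4% for Fdps, 18.3% for Fdft1, 8.22% for Hmgcs1 and 6.59% for Scap, and it was 2.58% or less for each other member. Whether counting used the strand is not given in the sources used here, so reads of opposite genes that overlap, such as Fdft1 and Ctsb, cannot be told apart.

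**Figure D1:**
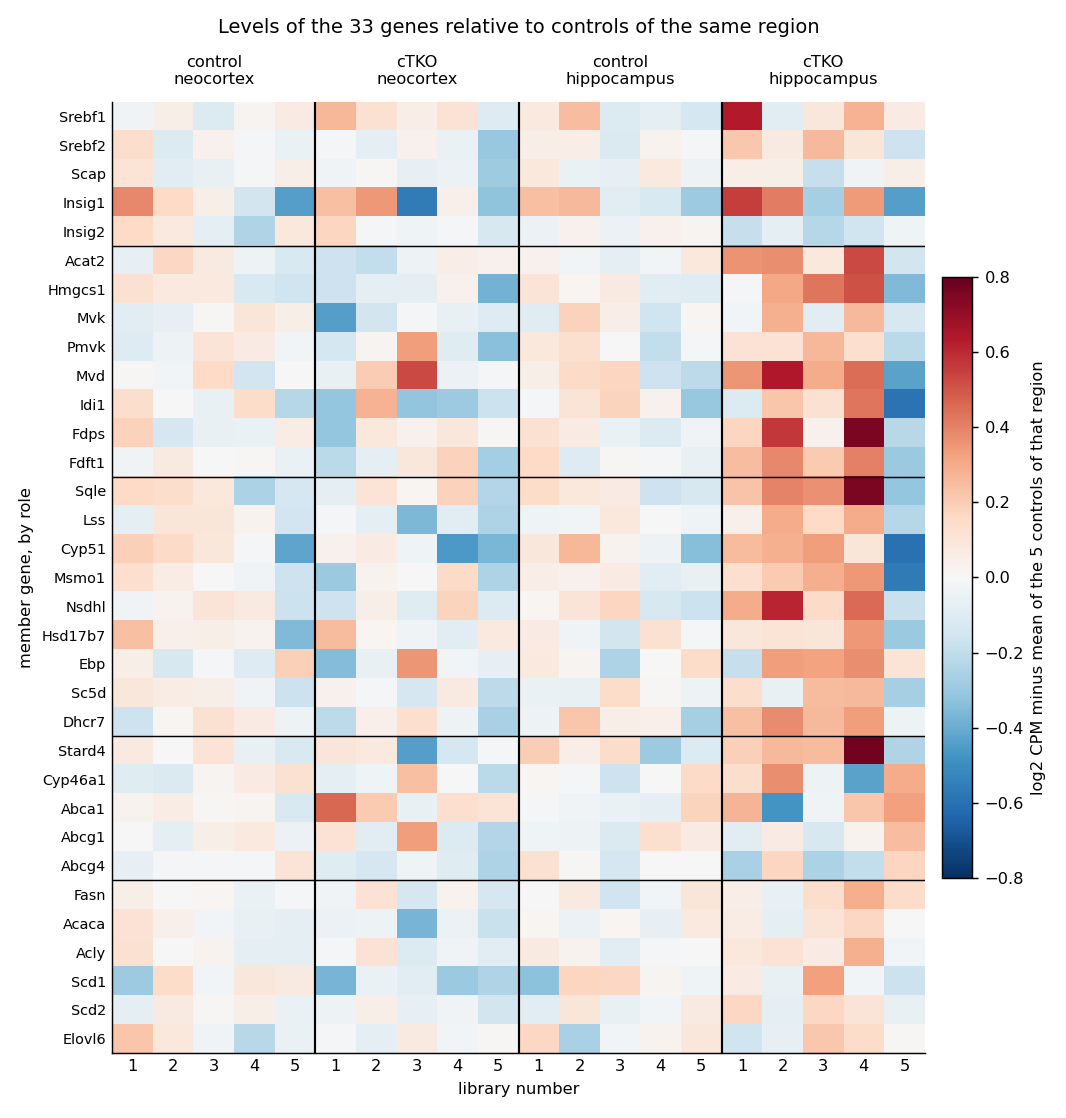
Heat map of the 33 genes, grouped by role in rows, over the 20 libraries, grouped by genotype and region in columns. Colour is the log2 CPM of a library minus the mean of the 5 controls of the same region. The cTKO hippocampus libraries 1 to 4 are mostly above the controls for the enzymes from Acat2 to Dhcr7, and library 5 of that group is mostly below them.

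In the neocortex, no member of the list was a DEG between cTKO mice and controls. Of the 33 genes, 0 passed an FDR of 0.05 by the quasi-likelihood test of edgeR, with p values adjusted after Benjamini and Hochberg over all 13843 genes tested, of which 0.188% passed. DESeq2 called 0 of the 33 as well. At an unadjusted p under 0.05 there were 2 of 33 members, Scd1 and Abca1, beside 10.4% of all genes. By their point estimates 7 members were higher and 26 lower in cTKO mice, with a median log2 fold change of -0.040 against 0.009 for all genes. The estimates ran from -0.21 to 0.19, and the 95% confidence intervals of all 33 lay between -0.46 and 0.39 on the log2 scale. In no member did the 5 cTKO libraries and the 5 controls fail to overlap, which 2.36% of all genes did. Without the library cTKO neocortex 5, 11 members were higher and the median was -0.017. The summed level of 7 astrocyte markers was 5356 to 5903 CPM in cTKO neocortex, below all controls at 5965 to 6537 CPM. Of the 7, 0 were called and 6 were lower by estimate, with log2 fold changes down to -0.16. The other was higher, with a log2 fold change of 0.956, the largest of the 7 in size. The mean log2 CPM of the 7 overlapped between genotypes, with 8.15 in cTKO neocortex 5, 8.51 in cTKO neocortex 3 and 8.24 in control neocortex 1. The sum of 10 oligodendrocyte markers overlapped, with 3187 to 6322 CPM in cTKO mice and 4056 to 5396 CPM in controls and 0 of 10 called. The part of these cells in the estimates was not tested.

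The 3 members with the smallest p values in the neocortex were a desaturase and a pair of exporters. Scd1 puts the double bond into oleate, and its level was 280.3, 379, 337, 366 and 360.3 CPM in the 5 controls and 265, 330.1, 323, 279 and 290.1 CPM in the 5 cTKO libraries. Most cTKO values were below most controls, but the groups overlapped, since control 1 was lower than 3 of the cTKO libraries (log2 fold change -0.21, standard error 0.087, FDR 0.431). Abca1 moves cholesterol onto apolipoproteins, and stood at 45.6, 46.5, 44.9, 45.4 and 41.1 CPM in controls and 61.5, 51.7, 42.9, 49.1 and 48.3 CPM in cTKO mice. Library 1 of the cTKO mice was the highest and library 3 lay among the controls (log2 fold change 0.19, standard error 0.086, FDR 0.459). Abcg4, a sterol exporter of neurons and astrocytes, had 78.7, 81.4, 81.5, 81.6 and 88.8 CPM in controls and 77.02, 75.1, 80.4, 77.1 and 69.2 CPM in cTKO mice (log2 fold change -0.11, standard error 0.056, FDR 0.501). Here 4 of the 5 cTKO libraries were below all controls and library 3 was not.

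The regulators in the neocortex were close to the controls. Srebf2, the factor that mainly drives cholesterol genes, was counted at 268, 225, 249, 239.6 and 234 CPM in controls and 241, 229, 248, 233 and 197 CPM in cTKO mice, with its lowest value in cTKO library 5 (log2 fold change -0.074, standard error 0.066, FDR 0.750). Srebf1, which drives fatty acid genes in many tissues, was at 42.4, 44.6, 40.2, 43.9 and 45.4 CPM in controls and 52.01, 47.1, 44.8, 46.96 and 40.3 CPM in cTKO mice (log2 fold change 0.10, standard error 0.070, FDR 0.658). For both genes the ranges of the genotypes overlapped. Scap, the escort of the SREBPs, had 109, 95.03, 97.5, 101 and 105 CPM in controls and 99.4, 102, 96.96, 98.01 and 83.4 CPM in cTKO mice (log2 fold change -0.074, standard error 0.062, FDR 0.727). Insig1, itself a target of SREBPs, varied most among the regulators, from 54.7, 46.8, 43.4, 37.9 and 30.9 CPM in controls to 49.7, 53.5, 28.4, 43.1 and 33.6 CPM in cTKO mice (log2 fold change -0.029, standard error 0.17, FDR 0.9748). Its libraries spread over a range that covered both genotypes. Insig2, the other brake on Scap, stood at 33.8, 31.96, 28.7, 25.6 and 32.1 CPM in controls and 34.1, 30.2, 29.6, 30.1 and 27.7 CPM in cTKO mice, and its means were nearly equal (log2 fold change 0.001, standard error 0.085, FDR 0.997).

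Among the enzymes in the neocortex, 1 of the 8 genes of the path to squalene and 2 of the 9 from squalene to cholesterol had a positive estimate. The medians of these groups were -0.048 and -0.041. The smallest p among the 17 enzymes was that of Lss, lanosterol synthase, with 44.02 ± 3.28 CPM (mean and SD of 5) in controls and 39.6 ± 3.88 CPM (mean and SD of 5) in cTKO mice and a log2 fold change of -0.14, with a 95% confidence interval of -0.32 to 0.030. Hmgcs1 was at 309 ± 26.99 CPM (mean and SD of 5) and 282 ± 29.4 CPM (mean and SD of 5) (interval -0.29 to 0.042). Sqle, squalene epoxidase, was at 55.7 ± 6.88 CPM (mean and SD of 5) and 55.7 ± 6.20 CPM (mean and SD of 5) (interval -0.19 to 0.20). Of the 5 genes of transport, turnover and export, Cyp46a1 was at 289 ± 20.7 CPM (mean and SD of 5) and 286 ± 33.8 CPM (mean and SD of 5), with an interval of -0.17 to 0.16. All 6 genes of fatty acid synthesis had negative estimates, from -0.21 for Scd1 to -0.007 for Elovl6, and Fasn was at 324 ± 7.95 CPM (mean and SD of 5) and 318 ± 23.7 CPM (mean and SD of 5).

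**Figure D2:**
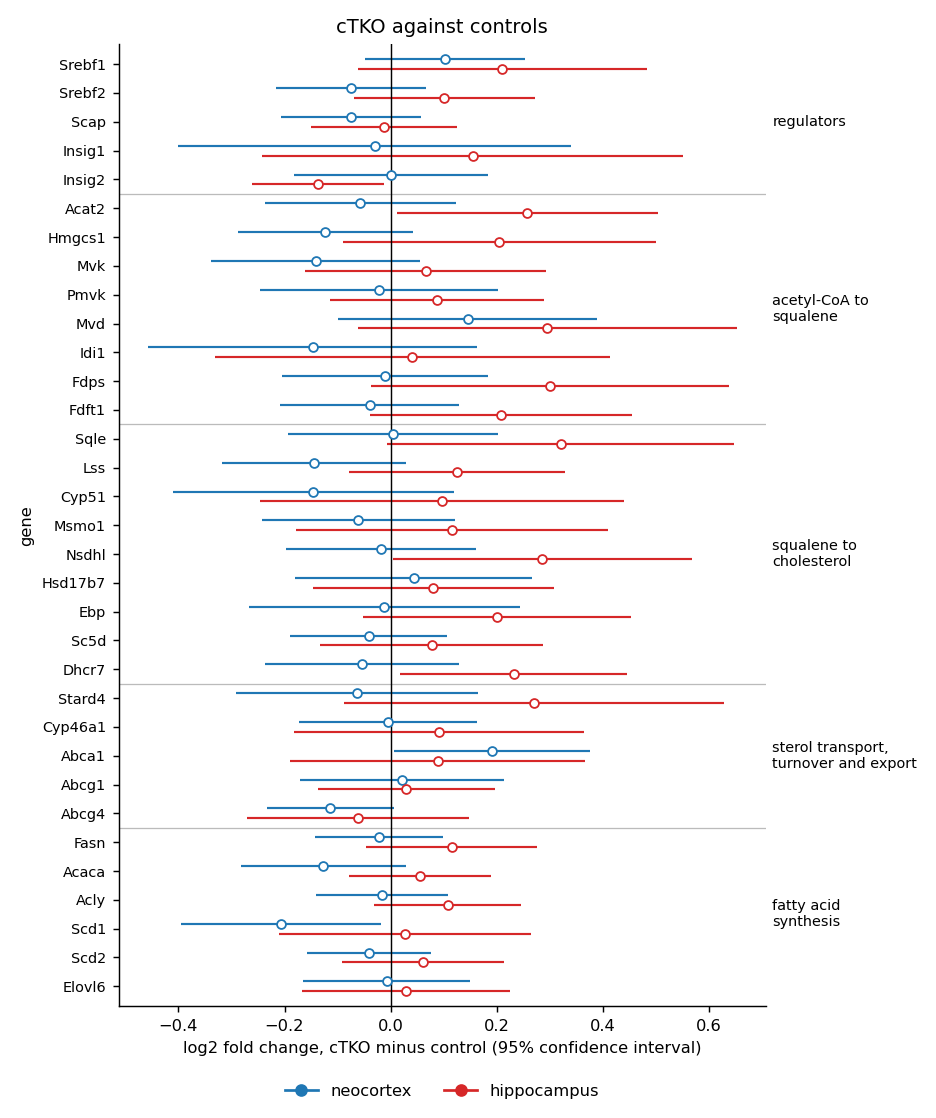
Log2 fold changes of cTKO mice against controls for the 33 genes, in neocortex (blue) and hippocampus (red). Points are estimates and bars are 95% confidence intervals, and all points are open because no gene passed an FDR of 0.05. In the hippocampus 30 estimates are above 0 and in the neocortex 26 are below 0, and nearly all intervals contain 0.

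In the hippocampus, too, 0 of the 33 members were DEGs, in a comparison in which 0.489% of 13702 genes passed, and DESeq2 called 0 of them. Estimates were positive for 30 members and negative for 3, Insig2, Scap and Abcg4. The median log2 fold change was 0.10, against 0.005 for all genes. At an unadjusted p under 0.05 there were 4 of 33 members, which is 12.1%, beside 12.01% of all genes. They were Dhcr7, Acat2 and Nsdhl with positive estimates and Insig2 with a negative one. The FDR of the 33 members lay between 0.371 and 0.972, and their intervals between -0.33 and 0.65. In none of them were the genotypes free of overlap, against 3.15% of all genes. Many members were high or low together in a library, so that their common sign does not count as 33 separate observations.

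Of the 3 members with the smallest p values in the hippocampus, Insig2 was at 44.4, 46.9, 44.3, 46.9 and 46.6 CPM in controls and 40.3, 43.3, 39.1, 40.96 and 44.7 CPM in cTKO mice. Only cTKO library 5 lay within the range of the controls (log2 fold change -0.14, standard error 0.058, FDR 0.371). Dhcr7, which catalyses the last step from 7-dehydrocholesterol, was at 34.9, 41.98, 37.05, 36.9 and 29.9 CPM in controls and 42.5, 46.8, 42.98, 45.4 and 34.8 CPM in cTKO mice. In 4 of 5 cTKO libraries it was above all controls, and in library 5 it was not (log2 fold change 0.23, standard error 0.10, FDR 0.374). Acat2, a cytosolic thiolase that makes acetoacetyl-CoA, was at 19.6, 18.8, 18.1, 18.8 and 20.3 CPM in controls and 24.5, 24.8, 20.3, 27.6 and 17.2 CPM in cTKO mice. Library 5 of the cTKO mice was below all controls, and library 3 lay close to the highest control (log2 fold change 0.26, standard error 0.11, FDR 0.387).

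Among the regulators in the hippocampus, Srebf2 was counted at 208, 208, 185, 205 and 199 CPM in controls and 233, 211, 240.5, 215 and 179 CPM in cTKO mice, where library 5 was the lowest of all 10 (log2 fold change 0.10, standard error 0.079, FDR 0.682). Srebf1 was at 48.2, 54.1, 42.3, 43.3 and 41.4 CPM in controls and 70.8, 42.99, 48.6, 55.3 and 47.8 CPM in cTKO mice. Its highest value was in cTKO library 1, and the groups overlapped (log2 fold change 0.21, standard error 0.13, FDR 0.554). Scap was at 106, 95.9, 94.97, 105 and 96.8 CPM in controls and 103, 103, 87.6, 97.5 and 103 CPM in cTKO mice (log2 fold change -0.012, standard error 0.063, FDR 0.972). Insig1 was at 41.2, 41.8, 32.8, 32.1 and 28.5 CPM in controls and 51.3, 46.4, 29.1, 44.2 and 25.7 CPM in cTKO mice (log2 fold change 0.15, standard error 0.18, FDR 0.810). Both the highest and the lowest of its 10 values were in cTKO mice.

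All 17 enzymes from acetyl-CoA to cholesterol had positive estimates in the hippocampus, 8 of 8 up to squalene and 9 of 9 after it. Their median log2 fold change was 0.20, with 0 called and 3 at an unadjusted p under 0.05, beside 12.01% of all genes. Sqle had the largest, 0.32 with an interval of -0.006 to 0.65, from 61.4, 58.8, 58.2, 49.5 and 50.8 CPM in controls and 65.2, 73.3, 71.6, 93.5 and 44.7 CPM in cTKO mice. Fdps, which makes farnesyl diphosphate, followed with 0.30 (interval -0.036 to 0.64), then Mvd with 0.30 (interval -0.062 to 0.65). Hmgcs1 was at 267, 252, 261, 233 and 232 CPM in controls and 246, 308, 334, 353 and 195 CPM in cTKO mice. For Sqle, Fdps, Mvd and Hmgcs1 alike, the lowest of the 10 hippocampal libraries was cTKO 5, and the cTKO group reached above the highest control. Stard4, which carries sterol between membranes and is a known target of SREBPs, went with them, at 9.69 ± 1.32 CPM (mean and SD of 5) in controls and 11.7 ± 3.0 CPM (mean and SD of 5) in cTKO mice (log2 fold change 0.27, interval -0.088 to 0.63). The estimates of the 6 genes of fatty acid synthesis were smaller, from 0.027 for Scd1 to 0.12 for Fasn, with a median of 0.058. Of the exporters, Abca1 had 0.089, Abcg1 0.030 and Abcg4 -0.061 as log2 fold changes, and Cyp46a1 had 0.092.

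The spread within the cTKO hippocampus was wide. As the mean log2 CPM over the 17 enzymes, cTKO libraries 1 to 4 were 0.14, 0.32, 0.21 and 0.40 above the mean of the 5 hippocampal controls, while library 5 was at -0.28 relative to it. The 5 controls lay between -0.089 and 0.068 of their own mean. Library 4 was the highest of the 5 cTKO libraries for 10 of the 17 enzymes and library 5 the lowest for 16 of 17. Library 4 was above all 5 controls for 16 of the 17, library 2 for 14, library 3 for 12 and library 1 for 8, and library 5 was below all 5 controls for 14. The median SD of an enzyme over 5 libraries was 0.29 log2 CPM in cTKO hippocampus and 0.13 in control hippocampus, and 0.17 and 0.11 in the neocortex of cTKO mice and controls. The difference in spread was not tested.

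**Figure D3:**
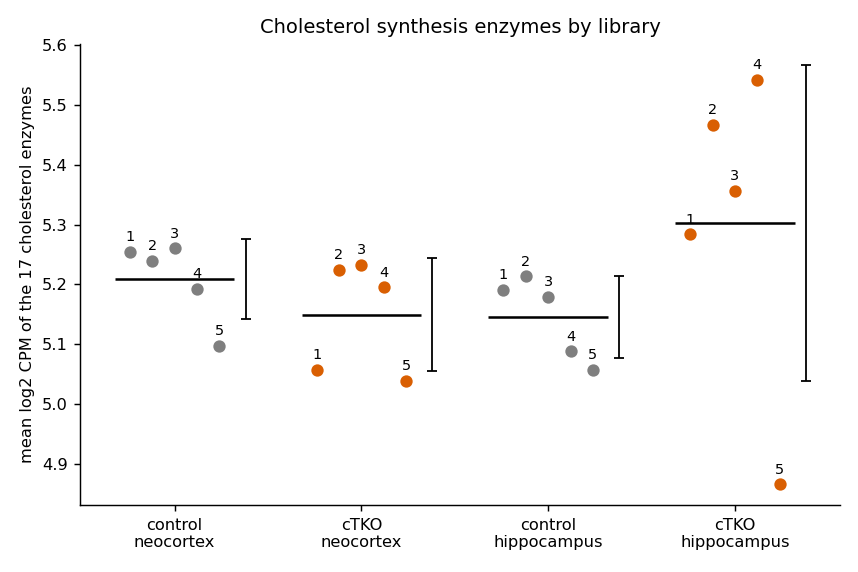
Mean log2 CPM of the 17 enzymes of cholesterol synthesis in each library, by group, with the library number above each point. The horizontal line is the mean of the 5 libraries and the bar beside it their SD. The cTKO hippocampus spans from 4.87 to 5.54 log2 CPM, a wider range than the 5.06 to 5.21 of its controls.

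The size of the hippocampal estimates, and the number at an unadjusted p under 0.05, thus depended on single libraries. Their direction did so less, since 16 or 17 of the 17 enzymes were higher in each alternative, with medians of 0.11 to 0.25. The enzymes were high or low together in a library, so this does not count as 17 separate observations. Library 4, the one with embryonic markers, was among the high ones. Without it the median of the 17 enzymes was 0.11 with 16 of 17 higher. Of the 17, 0 were then at an unadjusted p under 0.05, beside 11.8% of all genes. There were 0 as well without control hippocampus 1, control hippocampus 4 or cTKO hippocampus 2, with medians of 0.22, 0.18 and 0.16. In these fits 10.3%, 9.43% and 11.3% of all genes were at this p. Without cTKO library 5 the median was 0.25 with 11 of 17 at this p, beside 14.6% of all genes. Over all 33 members, the number at this p was 4, and it was 0 without control hippocampus 4, beside 9.43% of all genes. It went to 1 without cTKO library 4, beside 11.8% of all genes. It went to 14 without cTKO library 5, when 1993 of 13672 genes, or 14.6%, were at this p. In both cases 0 members were called, and the lowest FDR, 0.0639 for Fdft1, came without library 5. The summed level of 10 oligodendrocyte markers was 4661 to 6831 CPM in hippocampal controls and 4328 to 7395 CPM in cTKO mice, and that of 7 astrocyte markers 6642 to 8941 and 5841 to 9112 CPM. Of these, 0 of 10 and 0 of 7 were called between genotypes in the hippocampus. By estimate, 3 of the 7 astrocyte markers were higher and 4 lower, with log2 fold changes from -0.20 to 1.58 and a lowest FDR of 0.163. Of the 10 oligodendrocyte markers, 3 were higher and 7 lower, from -0.22 to 0.20. Library 4 had the lowest oligodendrocyte sum and the highest astrocyte sum of the 5 cTKO libraries, and library 5 was neither the lowest nor the highest in either. Library 5 had the highest sum of 4 choroid plexus markers of the 5 cTKO libraries, 591 CPM against 110.3 to 186 CPM, while the controls ranged from 74.7 to 2672 CPM. The sum of 4 markers of oligodendrocyte precursors was lower in all 5 cTKO hippocampi, at 94.6 to 115 CPM, than in all 5 controls, at 120.2 to 131 CPM, and 0 of either set of 4 were called. By estimate, 2 of the 4 precursor markers were higher and 2 lower in cTKO mice. Their mean log2 CPM overlapped between genotypes, with 4.34 in cTKO hippocampus 5 and 4.29 in control hippocampus 5. The part of these cells in the result was not tested.

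Whether the effect of the genotype differed between the regions was tested with the interaction term in one fit of all 20 libraries. None of the 33 members was called, by this test or by DESeq2, and 0.0564% of 14192 genes were. Estimates of the difference, hippocampus minus neocortex, were positive for 31 members and negative for 2, Insig2 and Abca1, with a median of 0.18 log2 units. At an unadjusted p under 0.05 there were 3 members, Acat2 with 0.32 (interval 0.027 to 0.62), Dhcr7 with 0.29 (interval 0.013 to 0.57) and Lss with 0.28 (interval 0.015 to 0.54), beside 3.75% of all genes. In a fit with a replicate block on the number of the library within each genotype there were 8 members, beside 4.66% of all genes, and 0 were called. The numbers were not taken as pairs in cTKO mice, where numbers 4 and 5 correlated at -0.056 and -0.071 between regions. For the 17 enzymes the median difference was 0.25. Without both libraries with embryonic markers it was 0.16, and 0 members had an unadjusted p under 0.05, beside 4.14% of all genes. Without control neocortex 2 or control neocortex 3 alone it was 0.24 or 0.23. Here too 0 members had such a p, beside 3.47% and 3.35% of all genes. Without cTKO hippocampus 5 the median difference was 0.35, and 12 members had such a p, beside 4.60% of all genes.

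Between regions, 14 of the 33 members differed in controls in the fit without pairing by number, 3 of them higher and 11 lower in hippocampus. This is 42.4% of the members, in a comparison in which 59.1% of 13832 genes passed the same FDR, 29.8% higher and 29.2% lower in hippocampus. The regions did not overlap in 13 members, 3 higher and 10 lower in hippocampus, against 44.2% of all genes, 22.4% higher and 21.8% lower. The median log2 fold change of the 33 was -0.10, hippocampus minus neocortex, and that of all genes 0.012. By role, 1 regulator rose and 1 fell, 3 of 8 genes up to squalene fell, 2 of 9 genes after squalene rose and 1 fell, 3 of 5 genes of transport and turnover fell, and 3 of 6 genes of fatty acid synthesis fell. With the library number as a replicate block, Insig1, Nsdhl and Scd1 were called as lower too, which makes 2 regulators, 2 genes after squalene and 4 genes of fatty acid synthesis that fell.

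Cyp46a1, the cholesterol 24-hydroxylase of neurons (chr12:108334381-108362234, plus strand of GRCm38), differed most. It was counted at 269, 265, 293, 301 and 314 CPM in the 5 control neocortices and at 161, 158, 142, 159.7 and 177 CPM in the 5 control hippocampi. All neocortical libraries were above all hippocampal ones, and the fold of hippocampus over neocortex was 0.551 (log2 fold change -0.86, standard error 0.065, FDR 2.80e-08). Stard4 (chr18:33199355-33213862, minus strand) fell from 16.2, 15.5, 16.6, 14.8 and 14.2 CPM in neocortex to 11.1, 10.002, 10.7, 7.84 and 8.89 CPM in hippocampus, again with no overlap (log2 fold change -0.68, standard error 0.10, FDR 2.99e-05). Insig2 (chr1:121304353-121332589, minus strand) was the largest rise, from 33.8, 31.96, 28.7, 25.6 and 32.1 CPM in neocortex to 44.4, 46.9, 44.3, 46.9 and 46.6 CPM in hippocampus. Its fold of hippocampus over neocortex was 1.495, with no overlap (log2 fold change 0.58, standard error 0.069, FDR 3.96e-06). The other Insig gene went the other way in its estimate, and Insig1 was at -0.29 (FDR 0.0821, and 0.00176 with the library number as a replicate block).

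Srebf2 (chr15:82147181-82205379, plus strand) fell from 268, 225, 249, 239.6 and 234 CPM in control neocortex to 208, 208, 185, 205 and 199 CPM in control hippocampus, without overlap (log2 fold change -0.28, standard error 0.054, FDR 4.05e-04). Hmgcs1 (chr13:119690379-119708260, plus strand) fell from 335, 324, 325, 283 and 276 CPM to 267, 252, 261, 233 and 232 CPM (log2 fold change -0.32, standard error 0.064, FDR 6.07e-04). Its lowest neocortical value was just above its highest hippocampal one. Fdft1 was at 95.04, 102, 96.7, 97.7 and 93.4 CPM in neocortex and 90.4, 75.3, 81.1, 80.2 and 77.6 CPM in hippocampus (log2 fold change -0.27, standard error 0.055, FDR 6.40e-04). Lss was at 41.8, 47.01, 46.9, 44.8 and 39.5 CPM in neocortex and 34.4, 34.7, 37.3, 35.3 and 34.3 CPM in hippocampus (log2 fold change -0.33, standard error 0.061, FDR 2.98e-04). In both genes the regions were apart, and in Fdft1 the overlap with Ctsb leaves the level less certain. Acaca, acetyl-CoA carboxylase, fell from 57.8, 54.8, 52.4, 51.3 and 50.6 CPM in neocortex to 43.3, 41.3, 43.2, 40.9 and 45.1 CPM in hippocampus (log2 fold change -0.33, standard error 0.052, FDR 7.04e-05). The enzymes on either side of it fell as well, Acly by 0.21 and Fasn by 0.22 on the log2 scale, while Scd2 and Elovl6 had log2 fold changes of 0.028 and -0.029 and were not called. The rest of the members that fell were Acat2 with -0.24 (FDR 0.00951) and Abcg1 with -0.18 (FDR 0.0114).

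Both of the enzymes that were higher in hippocampus work late in the pathway. Msmo1, the methylsterol oxidase, rose from 88.6 ± 6.78 CPM (mean and SD of 5) in control neocortex to 105 ± 5.12 CPM (mean and SD of 5) in control hippocampus (log2 fold change 0.24, standard error 0.057, FDR 0.00206). Sc5d, which makes 7-dehydrocholesterol, rose from 60.2 ± 4.20 CPM (mean and SD of 5) to 68.8 ± 4.35 CPM (mean and SD of 5) (log2 fold change 0.19, standard error 0.060, FDR 0.0138). In both, all hippocampal libraries were above all neocortical ones. Of the other enzymes after squalene, Sqle, Cyp51, Ebp and Dhcr7 had log2 fold changes of -0.006, 0.037, 0.032 and -0.083 and were not called. Nsdhl and Hsd17b7 were not called either, but were lower in hippocampus by their means. Nsdhl had a log2 fold change of -0.18 (FDR 0.0614). Hsd17b7 was at 5.01 ± 0.713 CPM per kb in control neocortex and 4.39 ± 0.307 CPM per kb in control hippocampus (SD, n = 5). Same-numbered control libraries were taken as pairs across regions because they correlated at 0.13 to 0.33, and no label says that they are pairs. The 14 calls above are from the fit without this pairing. With the number as a replicate block 17 members were called. They were the 14 above and Insig1 (FDR 0.00176), Nsdhl (FDR 0.0260) and Scd1 (FDR 0.0169), all 3 lower in hippocampus. This is 51.5% of the members, in a fit that called 61.4% of all genes. In one fit of all 20 libraries, Acat2, Msmo1, Sc5d and Abcg1 were no longer called, with FDR values of 0.0551, 0.0943, 0.0694 and 0.0966.

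**Figure D4:**
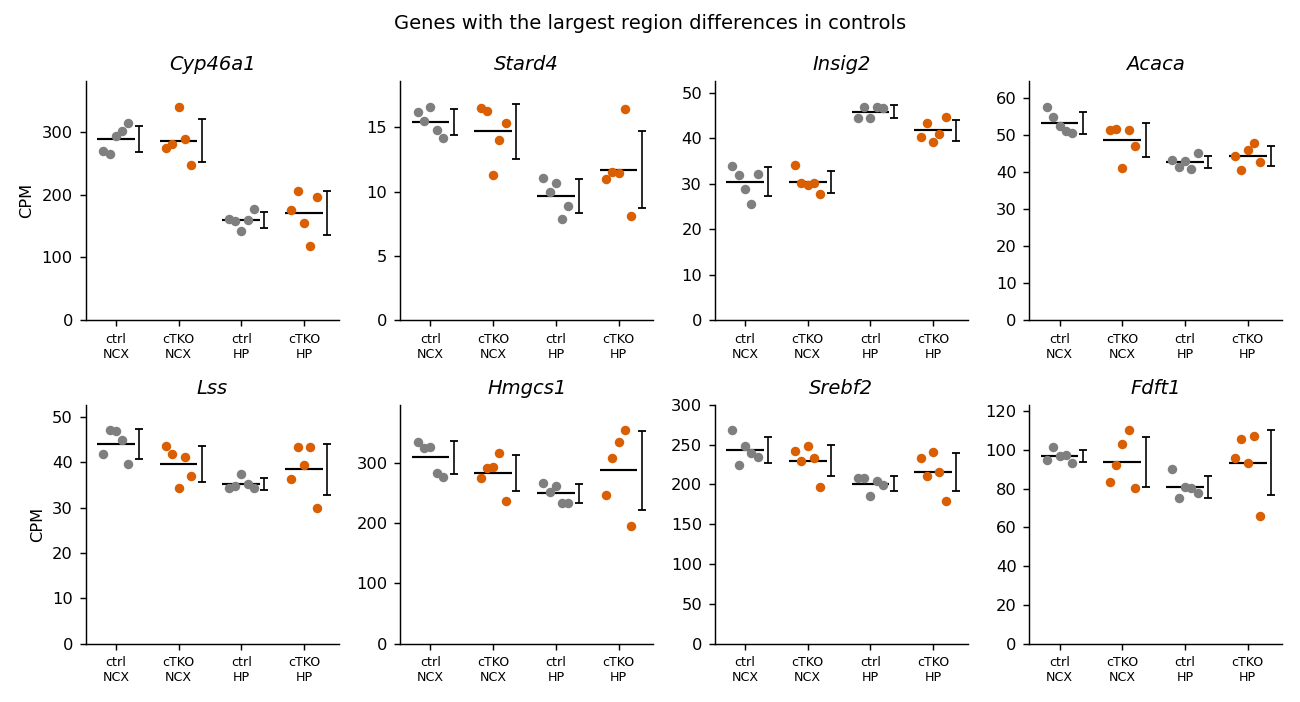
CPM of the 8 members with the largest region differences in controls, in each library of the 4 groups (NCX, neocortex; HP, hippocampus; grey, controls; orange, cTKO). Lines are means of 5 libraries and bars beside them are SD. Insig2 is higher in hippocampus in both genotypes and the other 7 are lower in control hippocampus than in control neocortex.

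In cTKO mice, 4 of the 33 members differed between regions, 3 of them higher and 1 lower in hippocampus, where 41.3% of 13846 genes did, 20.2% higher and 21.1% lower. The regions did not overlap in 2 members, against 28.8% of all genes. Insig2 rose from 34.1, 30.2, 29.6, 30.1 and 27.7 CPM in neocortex to 40.3, 43.3, 39.1, 40.96 and 44.7 CPM in hippocampus, without overlap (log2 fold change 0.44, standard error 0.075, FDR 5.08e-04). Cyp46a1 fell from 274, 281, 340.4, 288 and 248 CPM to 176, 206, 155, 118 and 196 CPM, likewise without overlap (log2 fold change -0.77, standard error 0.14, FDR 7.59e-04). Both calls held in each of 19 alternatives. Msmo1 (log2 fold change 0.41, standard error 0.15, FDR 0.0424) and Sc5d (log2 fold change 0.30, standard error 0.10, FDR 0.0316) were higher in hippocampus but overlapped between regions. Their calls held in 10 and 12 of 19 alternatives. When a single library was left out, Msmo1 was still called in 2 of 10 cases, without cTKO hippocampus 5 or cTKO neocortex 4, and Sc5d in those and without cTKO hippocampus 2 or cTKO neocortex 1, which makes 4 of 10. Without cTKO hippocampus 5, 8 members were called, with Cyp51, Dhcr7, Idi1 and Sqle higher in hippocampus besides the 4. This is 24.2% of the members, beside 39.0% of all genes. Without cTKO hippocampus 1, cTKO hippocampus 3 or cTKO neocortex 5, 2 remained, Insig2 and Cyp46a1. They are 6.06% of the members, beside 37.4%, 38.7% and 38.6% of all genes. Hmgcs1, Fdft1 and Lss, which fell in controls, had log2 fold changes of 0.007, -0.022 and -0.062 in cTKO mice and were not called. That the members called in controls differ from those called in cTKO mice is not shown by these counts, since the interaction called 0 of them.

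**Figure D5:**
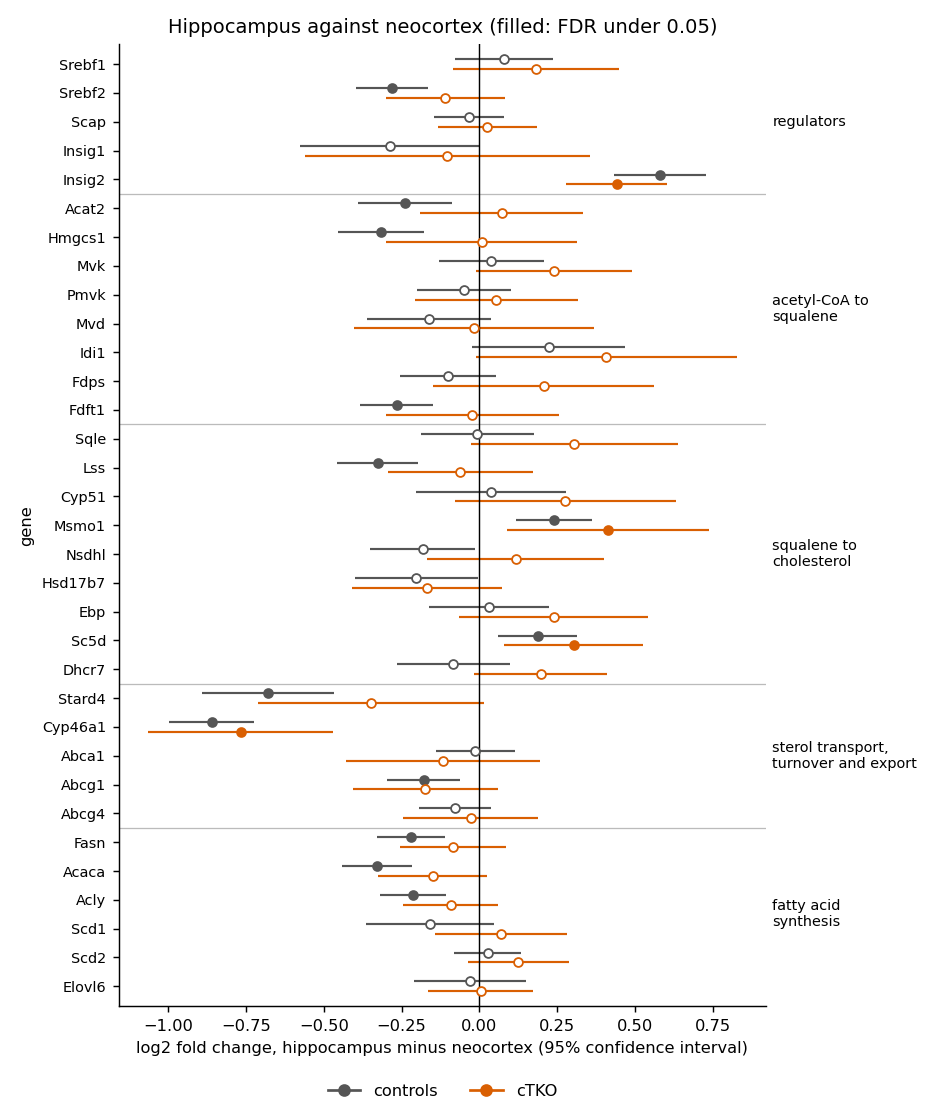
Log2 fold changes of hippocampus against neocortex for the 33 genes, in controls (grey) and cTKO mice (orange). Points are estimates, filled where the FDR is under 0.05, and bars are 95% confidence intervals. In controls 14 points are filled, 11 of them below 0, and in cTKO mice 4 are filled. The fits shown do not pair libraries by number.

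Other genes of the same pathways, which are not among the 33, were taken from a list of 28, of which 27 were in the count tables and all 27 were tested. Between genotypes, 0 of 27 were called in either region, with 0 higher and 5 lower at an unadjusted p under 0.05 in the neocortex and 0 higher and 3 lower in the hippocampus. These are 18.5% and 11.1% of the 27, beside 10.4% and 12.01% of all genes. In the interaction, 0 of 27 were called. Between regions in controls, 10 were higher and 6 lower in hippocampus, and in cTKO mice 10 were higher and 3 lower. This is 59.3% and 48.1% of the 27, where 59.1% and 41.3% of all genes were called. The largest rises in controls were those of Dbi, the acyl-CoA binding protein (log2 fold change 1.30, standard error 0.11, FDR 6.41e-08), of Me1, the malic enzyme that supplies NADPH (log2 fold change 0.56, standard error 0.063, FDR 2.19e-06), and of Fads2, a desaturase of polyunsaturated fatty acids (log2 fold change 0.45, standard error 0.068, FDR 4.07e-05). The largest falls were those of Tmem97, the sigma-2 receptor (log2 fold change -0.87, standard error 0.10, FDR 3.78e-06), of Cyp27a1, the sterol 27-hydroxylase (log2 fold change -0.75, standard error 0.16, FDR 9.54e-04), and of Elovl1, an elongase of very long chains (log2 fold change -0.41, standard error 0.10, FDR 0.00220). The median of the 27 was 0.14, opposite in sign to that of the 33 members.

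Markers of the cells that make and use cholesterol are given for the same comparison of regions in controls, in which 59.1% of all genes were called. Of 7 astrocyte markers, 5 were higher and 1 lower in hippocampus, with a summed level of 5965 to 6537 CPM in neocortex and 6642 to 8941 CPM in hippocampus. Of 10 oligodendrocyte markers, 2 were higher and 1 lower, a smaller share than that of all genes, with 4056 to 5396 and 4661 to 6831 CPM. Of 6 interneuron markers, 4 were lower and none higher, with 887 to 1022 and 722 to 903 CPM. Of 4 excitatory neuron markers, 2 were higher and 1 lower, with 9071 to 10113 and 10544 to 11919 CPM. Choroid plexus markers, 4 in all, summed to 9.02 to 13.96 CPM in neocortex and 74.7 to 2672 CPM in hippocampus. The part of these cells in the differences between regions was not tested.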

How the data were processed

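RNA-seq libraries of neocortex and hippocampus from cTKO mice and controls were used, 5 for each group. Per the labels and the methods of the study, the authors mapped reads with STAR 2.5.4a to mm10 and counted them on genes with HTSeq, and they deposited raw counts by gene symbol, 1 table per library. The annotation used is not given in the sources used here. The 33 genes, the other lists and the alternatives were chosen with earlier results of these data known.

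Each comparison was fitted on its 10 libraries, the interaction on all 20, over all genes that exceeded a CPM of 1 in 5 or more libraries. edgeR 4.0.16 in R 4.3.3 was used with TMM scaling and the quasi-likelihood test, and p values were adjusted over all genes tested by the Benjamini-Hochberg method. The methods of the study name edgeR, TMM and raw counts but no test or filter. Levels are CPM on TMM-scaled library sizes over all 20 libraries, and log2 CPM has a prior count of 2. Intervals are 95% confidence intervals of the log2 fold change from the fit. Libraries of a number were compared by the correlation of their deviations from the group means. All 5 same-numbered pairs of control neocortex and control hippocampus were correlated above 0.1 (0.13 to 0.33), so those numbers were taken as pairs. In the other comparisons this was not so for every pair.

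Values in every library are given for the 3 members with the smallest p in each genotype comparison, for the 5 regulators and for the 8 members with the largest change among those called between regions in controls, and for members that would have been called between genotypes, of which there were none. For Sqle and Hmgcs1 they were added after the values were seen. Of the other pathway genes, the 3 with the largest change in each direction are named. The mean over 17 enzymes, the motifs and the sequences shown were also chosen after the values were seen. Positions are from GENCODE M21 of GRCm38 and promoters from RefSeq of GRCm38.p6.

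Alternatives were DESeq2 1.42.0 with its Wald test, edgeR's likelihood ratio and exact tests, DESeq2 size factors, filterByExpr or no filter, the library number as a block, a single fit of all 20 libraries, each library left out, and both libraries with embryonic markers left out. The test was checked on simulated data. A first simulation of the region comparison with gene-wise dispersions gave more false calls than the limit set for the check, which was then applied to simulations with trended dispersions, so region calls with an FDR near the threshold are less certain. The methods of the study give 5 mice per genotype, each dissected for neocortex and hippocampus, and it is not given whether a number marks the same mouse in both regions. Counting error limits the levels, and 3 counts were 0.123 to 0.247 CPM. Without molecular identifiers a read need not be a separate molecule, so this covers counting error only. Figures were drawn with matplotlib 3.10.9.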

Additional observations from a re-analysis of the deposited data

Results flagged for a closer look

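8 values stood apart from the other 4 libraries of their group by Dixon's criterion, out of 132 groups of 5 tested (33 genes in 4 groups), of which about 1 in 20 would be singled out by chance. In cTKO hippocampus 5, the lowest of its group, Fdft1 was at 65.7 CPM (others 93.4 to 107 CPM), Cyp51 at 50.7 CPM (others 82.2 to 96.8 CPM) and Msmo1 at 71.0 CPM (others 115 to 133 CPM). All 3 are enzymes of cholesterol synthesis. In the neocortex of cTKO mice, Scap was lowest in library 5, at 83.4 CPM (others 97.0 to 102 CPM), Fdps lowest in library 1, at 23.7 CPM (others 29.6 to 31.4 CPM), and Idi1 highest in library 2, at 8.13 CPM (others 5.35 to 5.93 CPM). The exporter Abca1 stood apart in library 5 of the controls of both regions, as the lowest in the neocortex at 41.1 CPM (others 44.9 to 46.5 CPM) and as the highest in the hippocampus at 50.2 CPM (others 42.0 to 44.1 CPM). No member had genotype effects that differed between regions by the interaction test, and in none did the libraries of the regions move apart in opposite directions without overlap.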

How the results depend on the processing

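No member was called between genotypes in either region, or in the interaction, under any alternative run, leave-one-out included. Among all genes, 0.0507% to 1.60% were called in the neocortex, 0.110% to 2.42% in the hippocampus and 0.0353% to 0.183% in the interaction. At shares this low a list of this size could hold no called gene whatever its role, so the absence of calls says little about the members. The number of genes called among all genes did move. In the neocortex it was 26, and it was 222 with DESeq2's Wald test, 167 with the likelihood ratio test, 163 with the exact test, 42 with no filter, 17 in one fit of all 20 libraries, 12 with the replicate block, 133 without cTKO neocortex 5 and cTKO hippocampus 4, and 7 to 133 with each library left out. In the hippocampus it was 67, and 332, 259 and 258 by the same 3 tests, 195 in one fit of all 20 libraries, and 15 to 149 with each library left out. The interaction called 8 genes, 26 by DESeq2 and by the likelihood ratio test, 18 with the replicate block, and 5 to 20 with each library left out. Members called between regions in cTKO mice were 4, and 7 in one fit of all 20 libraries, 5 with the replicate block, and 2 to 8 with each library left out. These are 12.1%, 21.2%, 15.2% and 6.06% to 24.2% of the members, where 41.3%, 49.5%, 41.9% and 35.3% to 41.2% of all genes were called. In controls 14 to 17 members were called with each library left out, which is 42.4% to 51.5%, beside 55.6% to 58.4% of all genes. The numbers were not taken as pairs in the genotype comparisons, where the correlation of same-numbered libraries ranged from -0.14 to 0.22, or between regions in cTKO mice. There numbers 1, 2 and 3 correlated at 0.34, 0.32 and 0.40, each best with its own number as in controls, and numbers 4 and 5, which include both libraries with embryonic markers, at -0.056 and -0.071. The block changed no call of a member between genotypes and added Sqle between regions in cTKO mice. Over the named members that were called between regions, 308 of 328 values under alternatives kept direction and call and 20 kept direction and lost the call. The named members of the genotype comparisons were not called, and none of their 114 values was called or changed direction. The cause of these changes was not tested.

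Effects of genotype on single members were estimated with standard errors up to 0.17 log2 units in the neocortex and 0.18 in the hippocampus, so changes within the intervals given are not excluded by these data. Region, extraction kit and cell makeup cannot be told apart, and a change in excitatory neurons alone would be diluted in whole tissue.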

Other observations

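In each of the 4 groups, the library numbered 5 had the lowest mean log2 CPM over the 17 enzymes of cholesterol synthesis. It was 5.10 in control neocortex, 5.04 in cTKO neocortex, 5.06 in control hippocampus and 4.87 in cTKO hippocampus. The next lowest library of the group was at 5.19, 5.06, 5.09 and 5.28 log2 CPM. The gap to it was 0.095, 0.018, 0.031 and 0.42. The library cTKO neocortex 5 is one of the pair with embryonic markers, and its gap was the smallest of the 4. Without it the pattern rests on 3 groups. This was noticed after the values were seen, and the labels do not say whether a number marks a litter, a day or a mouse. Over all genes that passed the filter, libraries numbered 5 correlated at 0.13 between regions of controls and at -0.071 in cTKO mice. Between genotypes they correlated at -0.009 in the neocortex and 0.024 in the hippocampus.

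Over all 33 members, library 5 was the lowest of its group for 14 in control neocortex, 14 in cTKO neocortex, 9 in control hippocampus, where library 3 was the lowest for 11, and 21 in cTKO hippocampus. The exporters did not go with the enzymes in cTKO hippocampus 5, where Abca1 and Abcg1 had their highest value of the 10 hippocampal libraries, 55.8 and 88.2 CPM.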
